A study of Mus musculus with 2 samples.

Results

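The transcripts described are those of the immunoglobulin genes Igha, Iglc1, Iglc3, Iglv1, Ighm and Igkc and of the joining chain gene Jchain. These 7 genes, the members, were chosen by symbol out of 32285 features. An antibody is built of heavy and light chains, each with a variable region that binds antigen and a constant region, and the constant region of the heavy chain sets the class. Plasma cells are the B-lineage cells that secrete antibody, and a plasmacytoma is a tumour of such cells that makes the product of a single clone. The J chain links the units of polymeric IgA and IgM before secretion.

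J558 is a mouse plasmacytoma line, labelled a B lymphocyte, that was grown under the skin of female BALB/c mice. The Vehicle library came from a mouse given 0.5% methylcellulose by mouth, and the TAK-931 library from a mouse given TAK-931, an inhibitor of the replication kinase CDC7, at 60 mg/kg once daily. Both were taken at day 6 as single-cell 3′ libraries, with 1 library per group. No test could therefore be made, and all intervals are exact 95% intervals that cover counting error only. Each library came from the allograft of 1 animal, which the study's supplement describes as chosen to represent its group, so animal and treatment cannot be told apart.

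The Vehicle library held 4565 barcodes with 144767193 UMIs (molecular tags that count single transcripts), and the TAK-931 library 6558 barcodes with 77369283 UMIs. Of these, 3441 and 3488 passed limits of more than 2000 genes and less than 15% mitochondrial UMIs, and 8 barcodes occurred in both libraries. A kept cell was called a tumour cell with at least 3 UMIs of Trap1a, a tumour antigen gene of plasmacytomas, which gave 3022 Vehicle and 124 TAK-931 tumour cells. Their median depth was 42482 and 73592 UMIs. The plasma cell genes Sdc1, Xbp1 and Mzb1 had a UMI in 95.1%, 99.2% and 98.5% of the Vehicle tumour cells and in 89.5%, 99.2% and 99.2% of those of TAK-931. A UMI of at least 3 of the 10 macrophage markers was present in 46 of 3022 Vehicle but in 106 of 124 TAK-931 tumour cells, and 31 tumour cells of each library lay outside the clusters named plasmacytoma. Doublets were not removed.

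In the mouse genome (GRCm38, GENCODE annotation), the heavy chain constant genes Igha and Ighm lie at chr12:113254830-113260236 and chr12:113418558-113422730, both on the minus strand. The lambda genes lie on the minus strand of chromosome 16, Iglc1 at chr16:19061618-19062071, Iglc3 at chr16:19065230-19065681 and the variable segment Iglv1 at chr16:19085017-19085500. Igkc, the kappa constant gene, lies at chr6:70726435-70726966 on the plus strand, and Jchain at chr5:88519809-88527891 on the minus strand.

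The lambda constant genes are close relatives, and reads were counted from the 3′ ends of transcripts, so the last 120 coding bases with the stop codon are shown for the 2 members and for Iglc2, the remaining relative with counts in these cells. Bases that differ from Iglc1 are in capitals. They are read on the minus strand, from chr16:19061752-19061871 for Iglc1, chr16:19065365-19065484 for Iglc3 and chr16:19198536-19198655 for Iglc2.
Iglc1: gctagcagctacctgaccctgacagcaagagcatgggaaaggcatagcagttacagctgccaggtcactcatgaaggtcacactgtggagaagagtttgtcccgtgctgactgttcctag
Iglc3: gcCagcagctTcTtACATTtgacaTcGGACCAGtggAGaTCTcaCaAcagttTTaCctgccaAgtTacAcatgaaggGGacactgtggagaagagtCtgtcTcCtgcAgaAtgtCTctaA
Iglc2: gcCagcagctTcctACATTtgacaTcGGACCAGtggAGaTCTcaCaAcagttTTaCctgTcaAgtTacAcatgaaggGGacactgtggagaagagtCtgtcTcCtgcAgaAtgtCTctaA
Iglc3 differed from Iglc1 at 39 of these 120 bases, compared position by position, and over the aligned coding sequences the identity was 74.8%. Iglc3 and Iglc2 differed at 2 of the 120 bases, with 96.2% identity over the coding sequences and 90% over the 3′ untranslated regions. Counts of Iglc3 and Iglc2 could thus be split or lost between near-identical copies and are uncertain.

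The tumour cells of both libraries carried an alpha heavy chain with lambda light chains, and the lambda constant genes Iglc1 and Iglc3 were the most abundant transcripts in these cells. Levels are given as CPM, the count of a gene scaled to a fixed total of 1e6 UMIs, over all tumour cells of a library summed. One UMI stands for 1 transcript end in 3′ chemistry, so no length scaling was applied. Iglc1 ranked first of all features in both libraries and Iglc3 second, while Igha ranked 6 in Vehicle and 8 in TAK-931. Immunoglobulin and J chain transcripts together made up 11.2% of the tumour cell UMIs in Vehicle and 11.9% in TAK-931.

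Igha, the constant region of IgA, was at 9183 CPM (interval 9167 to 9199, 1234171 UMIs) in Vehicle and at 8399 CPM (8339 to 8459, 75655 UMIs) in TAK-931 tumour cells. The log2 ratio of TAK-931 to Vehicle was -0.13. Igha held 99.997% of all heavy constant UMIs in Vehicle and 99.9% in TAK-931. Among the other heavy constant genes outside the members, only Ighd had any UMI, with 4 in Vehicle and 0 in TAK-931. In single cells the 10th percentile, median and 90th percentile of Igha were 6375, 9014 and 12065 CPM in Vehicle and 3502, 7818 and 12269 CPM in TAK-931. The ranges overlapped, and the lower tail reached further down in TAK-931. No tumour cell lacked an Igha UMI.

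Iglc1, the constant region of lambda 1 chains, was at 63240 CPM (63198 to 63283) in Vehicle and at 66174 CPM (66006 to 66342) in TAK-931, a log2 ratio of 0.07. Iglc3, the constant region of lambda 3 chains, was at 34250 CPM (34219 to 34281) in Vehicle against 35230 CPM (35108 to 35353), which is a log2 ratio of 0.04. The variable segment Iglv1 was at 1116 CPM (1110 to 1121) in Vehicle against 965 CPM (945 to 986), with a log2 ratio of -0.21. All 3 lambda genes differed between the libraries by less than 2-fold. Single cells spanned 34557, 62897 and 92606 CPM of Iglc1 (10th percentile, median and 90th percentile) in Vehicle and 16922, 61202 and 99247 CPM in TAK-931. The lambda constant genes together gave 10.6 UMIs per Igha UMI in Vehicle and 12.1 in TAK-931.

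Igkc, the constant region of kappa chains, was also present in the lambda-bearing tumour cells. It was at 1077 CPM (1071 to 1082) in Vehicle and 914 CPM (895 to 934) in TAK-931, a log2 ratio of -0.24. That was 1.09% and 0.894% of the summed light chain constant UMIs. Almost every tumour cell had a UMI of it, as no Igkc UMI was seen in 5 of the 3022 cells of Vehicle and 3 of the 124 of TAK-931. A single UMI can also be free RNA, as Igkc was at 22.5 and 11.6 CPM in cells of other types, described below. The 10th percentile of Igkc over single tumour cells was 596 CPM in Vehicle and 266 CPM in TAK-931. With tumour cells defined by at least 1 Trap1a UMI, the log2 ratio was -0.75 for Igha, -0.56 for Iglc1, -0.59 for Iglc3, -0.83 for Iglv1 and -0.85 for Igkc. The 373 TAK-931 cells of that set include 225 with 1 and 24 with 2 Trap1a UMIs, which are otherwise counted as not tumour.

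Jchain was the 1 abundant member that differed by more than 2-fold. It was at 2843 CPM (2834 to 2852, 382025 UMIs) in Vehicle and at 7062 CPM (7007 to 7117, 63609 UMIs) in TAK-931 tumour cells, 2.48-fold higher in TAK-931 (log2 ratio 1.31, interval 1.30 to 1.32). Its rank by level was 64 in Vehicle and 9 in TAK-931, and Jchain UMIs per Igha UMI were 0.310 and 0.841. In single cells the 10th percentile, median and 90th percentile were 968, 2474 and 4994 CPM in Vehicle and 3047, 6208 and 10597 CPM in TAK-931. The distributions overlapped, with 115 of 124 TAK-931 cells above the Vehicle median and 128 of 3022 Vehicle cells above the TAK-931 median.

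The higher Jchain level was also present in narrower sets of cells. In tumour cells of the plasmacytoma clusters, 2991 and 93 cells, the log2 ratio was 1.36, and among cells of 50000 to 100000 UMIs it was 1.35. It was 1.08 when only the 13 TAK-931 cells with under 3 markers of every other lineage were left, and 0.69 when a single Trap1a UMI was taken as enough. The set of a single Trap1a UMI, with 3092 and 373 cells, takes in cells otherwise counted as not tumour. It was the 1 of 12 alternatives in which Jchain was under 2-fold higher.

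Of the 12511 genes with at least 50 UMIs in the tumour cells of both libraries together, 9.7% were at least 2-fold higher in TAK-931 and 5.03% at least 2-fold lower. Of the 7 members, Jchain was at least 2-fold higher and 0 were 2-fold lower. Ighm was also past 2-fold, but is not counted. It reached the limit of 50 UMIs only through its 76 UMIs in TAK-931, with 28 in Vehicle. The median log2 ratio was 0.04 over the members, Ighm included, and 0.03 over all genes tested. Among the 129 genes with a mean of at least 1000 CPM, 1 was at least 2-fold higher, Jchain, and 0 were at least 2-fold lower.

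**Figure D1:**
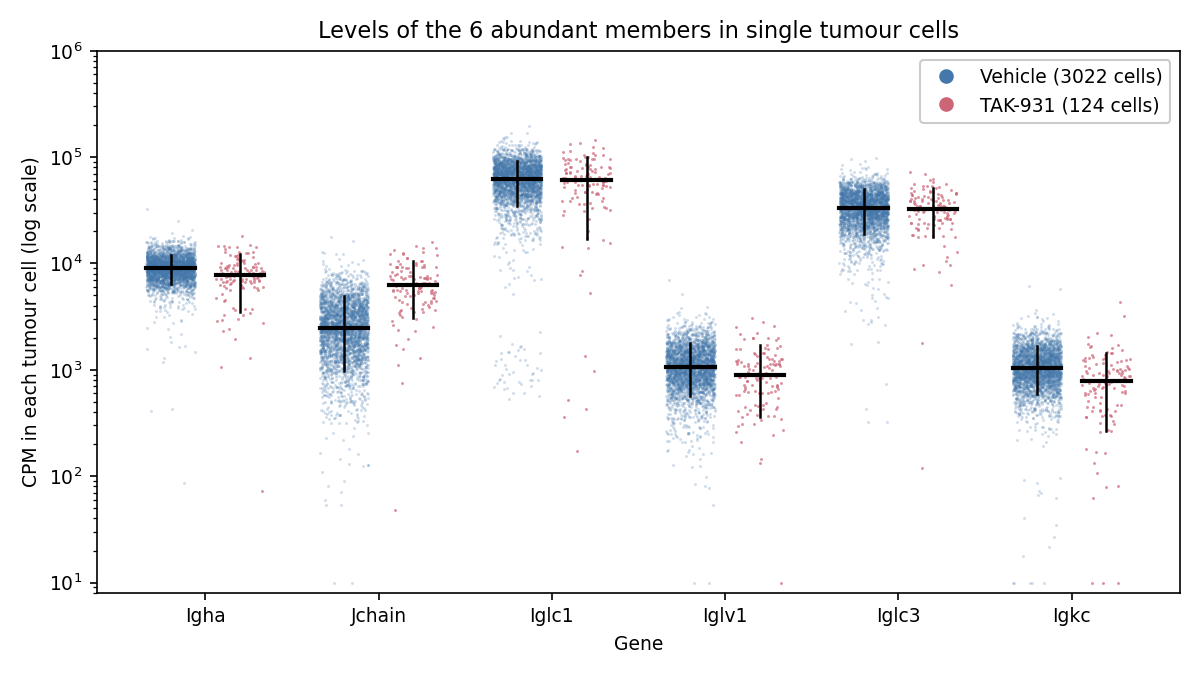
CPM of 6 members (log axis) in each tumour cell of the Vehicle (blue) and TAK-931 (red) library, with the median (bar) and the 10th to 90th percentile (line), and cells without a UMI drawn at 10. Jchain sits higher in TAK-931, with medians of 2474 and 6208 CPM, and a group of cells with Iglc1 far below the rest is visible in both libraries.

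Ighm, the constant region of IgM, was nearly absent from the tumour cells. It had 28 UMIs (0.208 CPM, 0.138 to 0.301) in 11 Vehicle cells and 76 UMIs (8.44 CPM, 6.65 to 10.6) in 11 TAK-931 cells, a log2 ratio of 5.34 (4.70 to 6.02). Of the 76 UMIs in TAK-931, 72 were in 9 cells outside the plasmacytoma clusters, and of the 28 in Vehicle, 10 were in 5 such cells. Of the cells with an Ighm UMI, 4 of 11 in Vehicle and 8 of 11 in TAK-931 had at least 6 macrophage or 5 T cell markers. Within the plasmacytoma clusters the counts were 18 UMIs in 6 Vehicle cells and 4 UMIs in 2 TAK-931 cells. The log2 ratio of 2.13 from these rests on too few UMIs to be read as a difference. In tumour cells with under 3 markers of every other lineage there were 2 UMIs in 2635 Vehicle cells and 0 UMIs (upper limit 8.77 CPM) in 13 TAK-931 cells, too few for a ratio. The part of transcripts of other cell types in the ratios was not tested.

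Other immunoglobulin features were far below the 6 abundant members. Vpreb3, a part of the surrogate light chain family, had 76.8 CPM in Vehicle and 49.3 CPM in TAK-931. The variable segments with most UMIs were Ighv1-26 (9.30 and 7.99 CPM), Ighv1-33 (5.25 and 5.66 CPM) and Ighv1-19 (2.98 and 2.66 CPM) for heavy chains. For kappa they were Igkv3-1 (5.94 and 4.44 CPM), Igkv3-2 (4.11 and 4.11 CPM) and Igkv19-93 (3.21 and 5.33 CPM). In the lambda locus the highest features outside the members were Iglv3 (7.32 and 7.10 CPM), Iglc2 (6.83 and 5.55 CPM) and Iglv2 (0.499 and 0.555 CPM).

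By the coefficient of variation, Igha varied least between the Vehicle tumour cells and Jchain most, while in TAK-931 Igha and Iglc3 were level and Igkc was highest. In Vehicle the coefficient of variation over cells was 26.3% for Igha, 36.0% for Iglc3, 37.9% for Iglc1, 42.3% for Igkc, 46.0% for Iglv1 and 61.4% for Jchain. In TAK-931 it was 40.6% for Igha, 40.8% for Iglc3, 47.4% for Jchain, 50.4% for Iglc1, 58.7% for Iglv1 and 69.1% for Igkc. The 90th percentile was 1.89 times the 10th for Igha and 5.16 times for Jchain in Vehicle, and 3.5 and 3.48 times in TAK-931. By this measure Iglc3, at 2.84 times, was the narrowest and Iglc1, at 5.87 times, the widest of the 6 in TAK-931. Across cells of 1 library, as a description over points that share depth and free RNA, Spearman's rho was 0.45 for Iglc1 and Iglv1 and 0.11 for Igha and Jchain in the 3022 Vehicle cells. In the 124 TAK-931 cells it was 0.47 and 0.46. The rho with Trap1a was also higher in TAK-931, at 0.44 against 0.13 for Igha, 0.57 against 0.26 for Jchain and 0.57 against 0.05 for Iglc1. Trap1a counts also chose these cells, so the rho with Trap1a is given as a description only. The part of the TAK-931 cells outside the plasmacytoma clusters or with macrophage markers in these values and in the coefficients of variation was not tested.

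Few tumour cells were low in the heavy chain, and their share depended on how tumour cells were defined. A cell was counted as low in a gene when its CPM was under 0.1 of the median over the tumour cells of its library. By this rule 3 of 3022 Vehicle cells (0.0993%, 0.0205 to 0.290%) and 1 of 124 TAK-931 cells (0.806%, 0.0204 to 4.41%) were low in Igha. None of these 4 cells lay in a plasmacytoma cluster: 3 lay in macrophage-like and 1 in endothelial-like clusters. With at least 1 Trap1a UMI as the definition, the shares were 1.94% and 29.0%, and without tumour cells with 3 or more markers of another lineage they were 0% in both. The definition of 1 UMI added 57 cells with 1 and 13 with 2 Trap1a UMIs in Vehicle. In TAK-931 it added 225 and 24 to the 124. All of these are counted as not tumour elsewhere, so 29.0% is not a share of the 124 tumour cells. Low cells numbered 20 and 1 for Jchain, 12 and 2 for Iglc3, 17 and 5 for Igkc and 7 and 1 for Iglv1, in Vehicle and TAK-931. Iglc1 had the most, 46 in Vehicle (1.52%, 1.12 to 2.03%) and 7 in TAK-931 (5.65%, 2.30 to 11.3%). In Vehicle 41 and in TAK-931 5 of these were low in Iglc1 alone, and 2 and 1 cells were low in all 6 members.

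Most cells low in Iglc1 formed a separate group in the plot of Iglc1 against Iglc3, at the usual level of Iglc3. With the log2 ratio of Iglc3 to Iglc1 UMIs (1 added to each) of at least 2, a limit set after the values were seen, the group held 40 of 3022 Vehicle cells (1.32%, 0.947 to 1.80%) and 5 of 124 TAK-931 cells (4.03%, 1.32 to 9.16%). The lowest value inside was 3.40 and the highest outside 1.95 in Vehicle, and 4.15 and 1.19 in TAK-931, with no cell between 2 and 3. All 40 and all 5 cells lay in plasmacytoma clusters. Their Trap1a level was 1524 CPM against 1455 CPM in the other tumour cells in Vehicle, and 1488 against 1820 CPM in TAK-931.

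In the 40 Vehicle cells Iglc1 was at 1073 CPM (1023 to 1125), against 63982 CPM in the other 2982 tumour cells, and ranged from 537 to 2246 CPM between cells. For comparison, Iglc1 in cells of other types, described below, was at 868 CPM in Vehicle and 233 CPM in TAK-931. Igha, Iglc3, Jchain and Igkc differed from the remaining tumour cells by less than 2-fold. Igha was at 9731 against 9177 CPM, Iglc3 at 36355 against 34225 CPM, Jchain at 3642 against 2833 CPM and Igkc at 960 against 1078 CPM. Iglv1 was also lower, at 397 CPM (367 to 430) against 1124 CPM, 35.4% of the level in the other cells.

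The 5 TAK-931 cells were likewise lower in Iglc1 and Iglv1. Iglc1 was at 703 CPM (604 to 814) against 68079 CPM, and Iglv1 at 349 CPM (281 to 430) against 983 CPM, 35.5% of the others. Igha was at 8345 against 8400 CPM, Iglc3 at 42575 against 35017 CPM, Jchain at 6197 against 7087 CPM and Igkc at 825 against 917 CPM. Of 8046 features that could be compared in Vehicle, Iglc1 was the lowest relative to the other tumour cells (log2 difference -5.90) and Iglv1 ranked 48. Counted the same way from the lowest, Jchain ranked 6916. Of all these features, 1.52% were at least 2-fold lower. These values chose the cells or share their counts, and are given as a description.

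**Figure D2:**
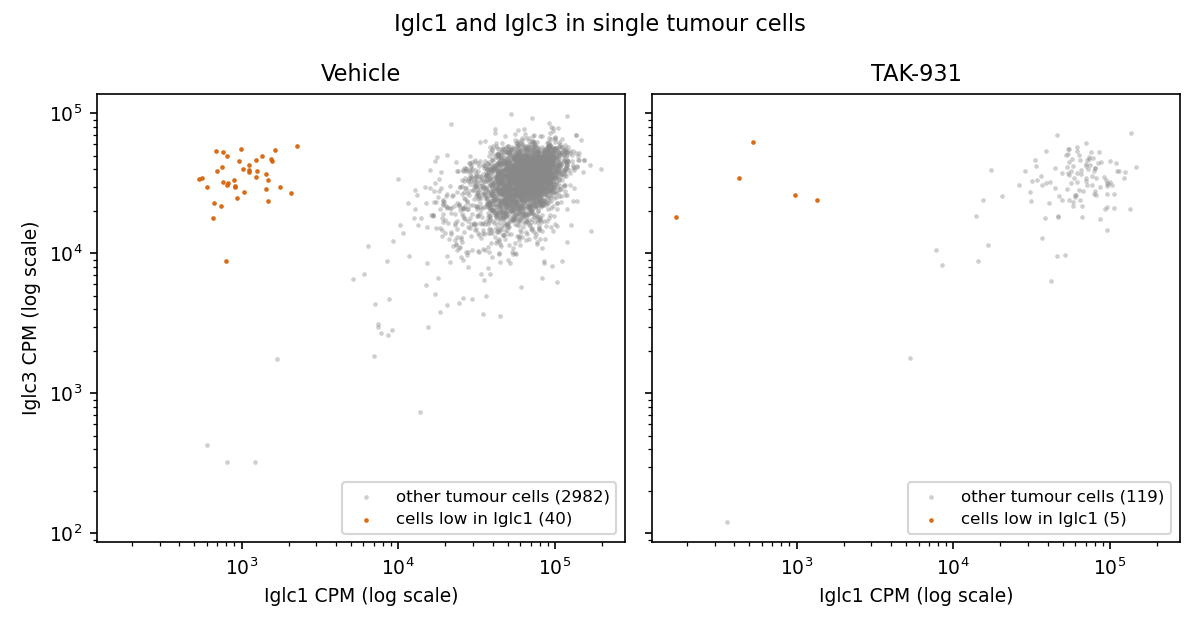
Iglc1 against Iglc3 CPM in each tumour cell (both axes log), Vehicle on the left and TAK-931 on the right, with the cells low in Iglc1 in orange. The 40 Vehicle and 5 TAK-931 cells sit at the Iglc3 level of the other cells but at or below 2246 CPM of Iglc1.

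Transcripts of the tumour product were found in nearly all other cells. Types were named from marker lists with immunoglobulin genes, Jchain and Trap1a left out of the clustering. In cells of the 7 named types with no Trap1a UMI and under 3 B cell markers, Igha was at 160 CPM (149 to 172) in 340 Vehicle cells and at 33.3 CPM (31.7 to 34.8) in 3035 TAK-931 cells. That was 1.75% and 0.396% of the tumour cell level. A UMI of Igha was present in 84.1% and 37.7% of these cells, at median depths of 12206 and 14752 UMIs. Iglc1 was at 868 and 233 CPM, with a UMI in 100% and 92.3%, and Iglc3 at 307 and 95.1 CPM.

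In TAK-931 the level of Igha differed between types by more than counting error. In Vehicle it ran from 114 CPM in 10 NK-like cells to 189 CPM in 211 macrophage-like cells. In TAK-931 it ran from 21.4 CPM in 690 T-like cells to 44.4 CPM in 1997 macrophage-like cells, apart from 446 CPM in 158 dendritic-like cells, where 1303 of the 1377 UMIs were in a single cell described below. The macrophage-like level was 2.06% (1.89 to 2.25%) of the tumour level in Vehicle and 0.529% (0.502 to 0.557%) in TAK-931. With macrophage cells taken by their own markers in place of clusters it was 3.27% and 0.679%. Relative to the whole library, in which the tumour cells were 87.8% of kept cells in Vehicle and 3.56% in TAK-931, the Igha level of these other cells was 1.86% and 3.12%.

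Members did not fall by one factor between tumour cells and other cells. In Vehicle, Igkc stood at 2.09% (1.72 to 2.51%) of its tumour level, Igha at 1.75% (1.63 to 1.87%), Iglv1 at 1.61% (1.29 to 1.97%), Iglc1 at 1.37% (1.33 to 1.41%), Jchain at 0.970% (0.816 to 1.14%) and Iglc3 at 0.898% (0.854 to 0.943%). In TAK-931, Igkc stood at 1.27% (1.17 to 1.37%), Iglv1 at 0.460%, Igha at 0.396%, Iglc1 at 0.352%, Jchain at 0.305% and Iglc3 at 0.270%. Igkc per Igha in TAK-931 was 0.348 (0.317 to 0.382) in these cells and 0.109 in the tumour cells. In Vehicle the ratio of Iglc3 to Iglc1 UMIs was 0.354 (0.334 to 0.375) in these cells and 0.542 in the tumour cells. In TAK-931 it was 0.408 (0.395 to 0.421) and 0.532. Jchain per Igha was 0.172 (0.143 to 0.206) against 0.310 in Vehicle and 0.647 (0.601 to 0.697) against 0.841 in TAK-931, so it was higher in the other cells of TAK-931 than of Vehicle, as in the tumour cells. In barcodes of at most 2000 genes and under 15% mitochondrial UMIs, of which 218 of 950 and 39 of 1663 had 3 or more Trap1a UMIs, the Iglc3 to Iglc1 ratio was 0.713 and 0.639. The source of the free transcripts was not tested.

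**Figure D3:**
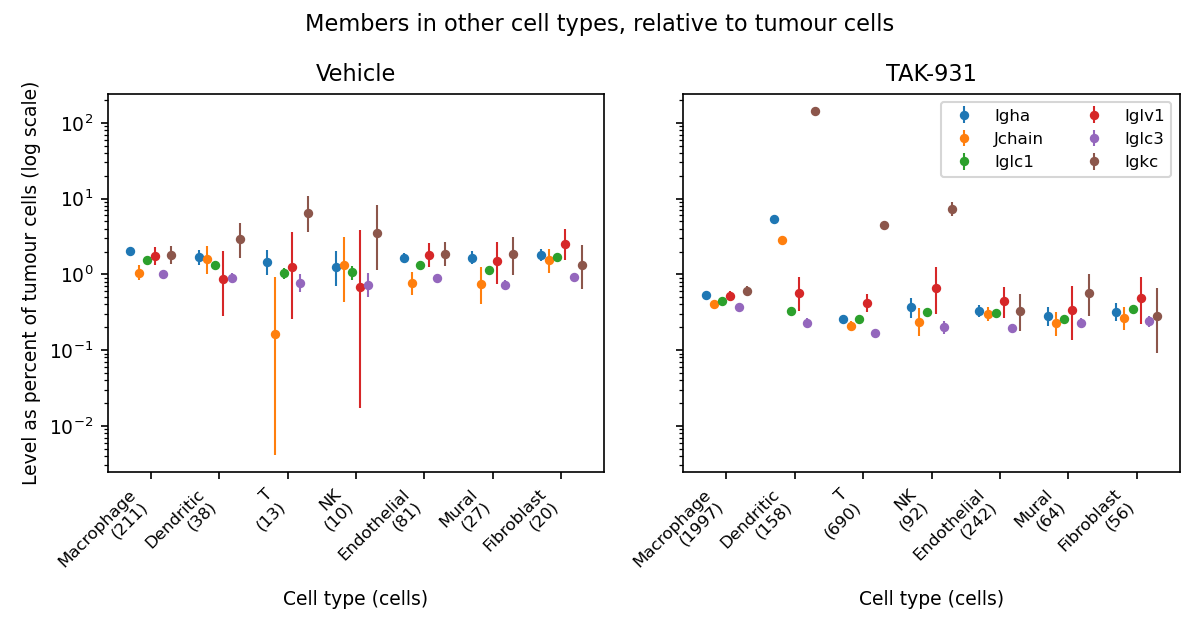
Level of 6 members in each cell type (cells in brackets) as a percent of the level in tumour cells of the same library, on a log axis, with exact 95% counting intervals. Macrophage-like cells hold Igha at 2.06% in Vehicle and 0.529% in TAK-931, and the Igkc, Igha and Jchain points of the TAK-931 dendritic-like cells, which include the IgA and kappa cell, stand above the rest.

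One cell in the TAK-931 library carried Igha together with a kappa chain. It had 21090 UMIs and no Trap1a UMI, and held 1303 Igha, 3470 Igkc and 564 Jchain UMIs, 6.18%, 16.5% and 2.67% of its total. It had 8 Iglc1 and 0 Iglc3 UMIs, 69 of Mzb1, 14 of Xbp1 and 17 of the variable segment Ighv9-3, and none of Ms4a1 or Ighm. Kappa was thus its light chain by count, in contrast to the lambda of the tumour cells. It was the single cell without Trap1a in which Igkc reached 5% of UMIs, out of 3115 in TAK-931, and there were 0 among 349 in Vehicle, which by a limit of 3 counts allows a share of up to 0.860%. Whether it was a single cell or a doublet was not tested.

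Cells with several B cell markers were few. Among kept cells without Trap1a, 4 in Vehicle (0.955% of the 419 cells that were not tumour, 0.261 to 2.43%) and 22 in TAK-931 (0.654% of 3364, 0.410 to 0.988%) had at least 3 of 10 markers. The 4 Vehicle cells had a median of 30917 UMIs, with Cd79a in 2, Ms4a1 in 0 and at most 3 Igkc UMIs, and 3 of them lay in macrophage-like and 1 in fibroblast-like clusters. With at least 5 markers there were 0 in Vehicle, with an exact upper limit of 0.877%, and 14 in TAK-931 (0.416%, 0.228 to 0.697%).

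The 14 TAK-931 cells carried Ighm and Igkc in every cell. Igkc ranged from 14 to 171 UMIs with a median of 42.5, and Ighm from 6 to 76 with a median of 27. Their summed level was 4117 CPM of Igkc and 2334 CPM of Ighm. Igha had a UMI in 3 of them, at most 2, and Jchain in 3, at most 1. Iglc2, which was under 7 CPM in tumour cells, was at 640 CPM in them, with 48 and 24 UMIs in a pair of cells that exceeded their Igkc counts of 38 and 14. The Iglc2 counts are subject to the near-identity with Iglc3 shown above.

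A cluster without a name under the marker rule, led by Ccr9, Siglech, Klk1 and Spib, carried Ighm and light chains. Siglech is a surface receptor of plasmacytoid dendritic cells. In its 64 TAK-931 cells Ighm was found in all, at 915 CPM (853 to 981) and from 3 to 30 UMIs per cell, and Igkc in 43 cells, at 719 CPM (664 to 778) and up to 80 UMIs. Of the B cell markers, Cd79a had 1 UMI and Ms4a1 0 in these cells. Mzb1, of the plasmacytoma marker list, had a UMI in 40 of them, at 182 CPM (155 to 213). Flt3, of the dendritic marker list, had a UMI in 42 of them, at 97.4 CPM (77.8 to 120). Iglc3 was at 498 CPM (453 to 547) against 187 CPM (159 to 218) of Iglc1, and exceeded Iglc1 in 51 of 64 cells, whereas Iglc1 exceeded Iglc3 in the summed tumour cells. Iglc2 was at 112 CPM (91.1 to 137), with a UMI in 20 of the 64 cells. The near-identity of Iglc2 and Iglc3 shown above makes their counts uncertain here too. The 6 Vehicle cells of the cluster all carried Ighm, at 974 CPM (690 to 1338), and Iglc3 exceeded Iglc1 in 1 of them.

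Ighm was also found in cells of other types, at levels that differed more than counting allows. With cells of 3 or more B cell markers left out, in TAK-931 it was at 106 CPM (101 to 111) in the macrophage-like cluster led by Ccl8, Ccl7 and Apoe, with a UMI in 55.5% of 868 cells. It was at 103 CPM (89.7 to 117) in a T-like cluster led by Tnfrsf4, Ikzf2 and Ctla4 and at 83.4 CPM (73.3 to 94.5) in dendritic-like cells. The largest T-like cluster, of 520 cells, had 6.82 CPM (5.28 to 8.66), and NK-like cells 12.0 CPM (7.02 to 19.3).

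Levels of Ighm also differed between types in Vehicle, where the whole library had 2.21 CPM. The same macrophage-like cluster had 69.4 CPM (57.6 to 82.9) in 115 cells, whereas the main endothelial-like cluster had 0 UMIs (upper limit 2.40 CPM) in 76 cells and the fibroblast-like cells 0 UMIs (upper limit 5.76 CPM) in 19 cells. In TAK-931, Igkc reached 87.1 CPM (75.1 to 100) in the T-like cluster led by Tnfrsf4, where 23 of 125 cells had a UMI and 3 cells held 38.1% of the UMIs, and 3.62 CPM in the macrophage-like cluster. Over all named types together the Igkc level was 11.6 CPM (10.7 to 12.5). The part of free transcripts in the Igkc UMIs of single cells was not tested.

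**Figure D4:**
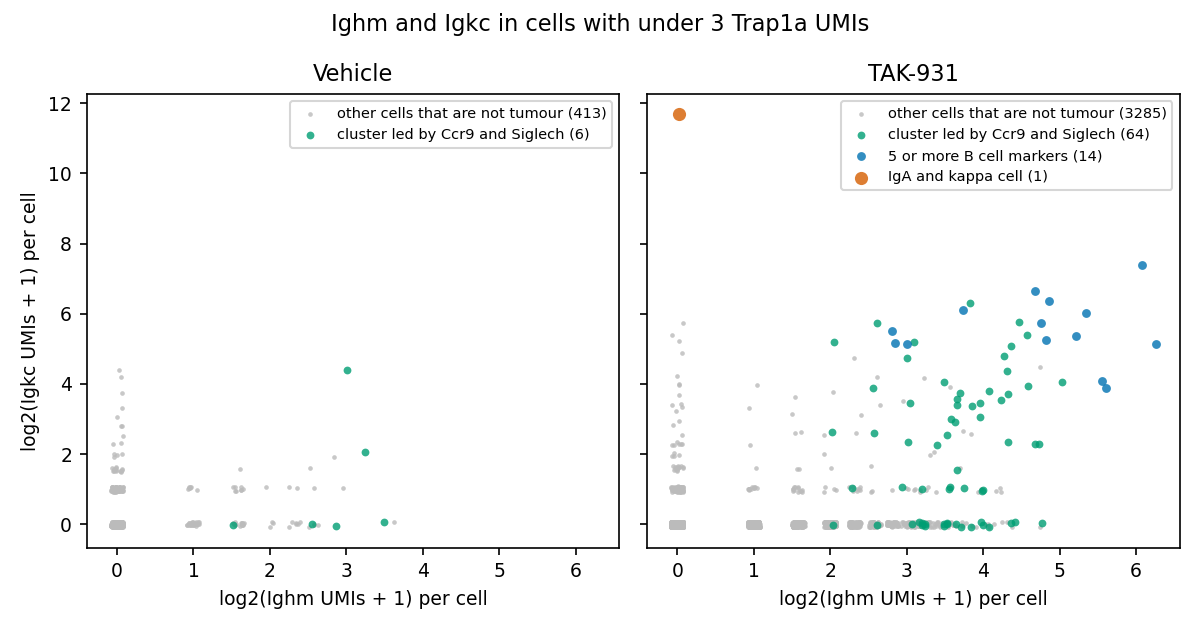
Ighm against Igkc UMIs, each as log2 of UMIs plus 1 with small jitter, in the kept cells with under 3 Trap1a UMIs, Vehicle on the left and TAK-931 on the right. The 14 cells with 5 or more B cell markers lie high in both, the cells of the cluster led by Ccr9 and Siglech all carry Ighm, and the IgA and kappa cell stands alone at the top.

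Genes of the secretory pathway, which folds and exports the chains, were less changed than Jchain in the tumour cells. All 22 genes of the list had enough counts, with a median log2 ratio of 0.14 against 0.03 over all genes tested, 17 higher and 5 lower, and 0 past 2-fold in either direction. The highest were Sdf2l1 (0.64) and Mzb1 (0.58), a chaperone partner of IgM and IgA assembly, and the lowest Herpud1 (-0.52) and Fkbp11 (-0.49). Of the antigen receptor and immunoglobulin receptor genes, Pigr and Fcamr had under 10 UMIs. The other 4, each with over 50 UMIs, had a median of 0.98, with 2 at least 2-fold higher and 0 lower, beside 9.7% and 5.03% of all genes tested. The highest were Fcmr (2.59, from 176 and 71 UMIs) and Fcer2a (1.93, from 203 and 52 UMIs), and the lowest were Cd79a (-0.35, interval -2.67 to 1.27) and Cd79b (0.02). Fcmr and Fcer2a are also genes of other immune cells, and 106 of the 124 TAK-931 tumour cells carried at least 3 macrophage markers, whose part in these ratios was not tested.

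Over 17 groups of cells, each a type in 1 library or its tumour cells, the genes outside the members whose log2(CPM + 5) profile was most like that of Igha were Pou2af1 (Pearson's r 0.95), Aldh1a2 (0.93), Apex1 (0.93), Rhox5 (0.92) and Oosp1 (0.92). Among the members, the r with Igha was 0.94 for Iglc1, 0.93 for Iglv1, 0.92 for Jchain and 0.91 for Iglc3. Those most like Igkc were Tnfrsf13c (0.90), Mthfd2 (0.88), Pard6b (0.86), Zfhx2 (0.84) and E330020D12Rik (0.83). The groups share libraries and free RNA, and the Igkc profile rests in part on the TAK-931 dendritic-like group, which holds the single IgA and kappa cell and 10 of the 14 cells with 5 or more B cell markers. The IgA and kappa cell also holds 94.6% of the Igha and 91.7% of the Jchain UMIs of that group. The Igha and Jchain profiles thus carry this cell too.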

How the data were processed

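The deposited matrices hold raw counts of UMIs per gene and barcode, which the authors made with Cell Ranger 6.0.0 on the mm10 mouse build per the labels, while the study's methods name the human build hg38. Depth is given with the report. For clustering, counts were scaled to 10000 per cell, and levels were scaled to CPM. The members and lists were chosen with earlier results of these data known. CPM is a share of the summed UMIs of a set of cells, with Poisson intervals, and log2 ratios carry exact binomial intervals. Shares of cells carry Clopper-Pearson intervals. Zero counts were given a limit of 3 counts or the exact upper bound. Clusters came from scanpy 1.11.5 and leidenalg 0.10.2 (2000 variable genes, 20 components, 20 neighbours, resolution 0.5) and were named by fixed marker lists. Named genes were all 7 members, the 3 immunoglobulin rows with most UMIs of each kind, the 5 genes most like Igha and Igkc outside the members, and the 2 highest and 2 lowest of each list. Calculations used Python 3.11.15, numpy 2.4.6 and scipy 1.17.1, and were checked on simulated sums. Chosen after values were seen were the limit for cells low in Iglc1, the 5-marker limit, the limit of 5% Igkc and the cluster led by Ccr9 and Siglech. Ighmbp2, which is no immunoglobulin gene, was left out. Coordinates and sequences came from GENCODE on GRCm38.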

Additional observations from a re-analysis of the deposited data

Results flagged for a closer look

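Barcodes of at most 2000 genes, which were left out of the comparisons, held cells with 5 or more B cell markers and no Trap1a UMI: 8 of 950 in Vehicle (0.842%, 0.364 to 1.65%) and 18 of 1663 in TAK-931 (1.08%, 0.643 to 1.71%). They are listed because their Igkc level exceeded that of kept macrophage cells. The 950 and 1663 take in 218 and 39 barcodes with 3 or more Trap1a UMIs, so the shares of the libraries have unlike bases. Igkc was at 6776 CPM in the 8 and at 9062 CPM in the 18, against 18.4 and 9.85 CPM in kept cells with at least 3 macrophage markers and under 3 of any other lineage. Ighm was at 826 and 2179 CPM, with a UMI in 6 of 8 and 18 of 18. Above the gene limit there were 0 such cells in Vehicle and 14 in TAK-931. Over all barcodes, 28 of 32 TAK-931 and 7 of 8 Vehicle cells had more Igkc than summed lambda constant UMIs.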

How the results depend on the processing

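With 1 library per group there was no replicate to leave out, and no paired analysis was possible because the groups share only 1 replicate number. No difference past 2-fold changed sign in the 12 alternatives for Jchain and the 10 that gave a value for Ighm, and the log2 ratio ran from 0.69 to 1.36 for Jchain, from 2.13 to 6.46 for Ighm, from -0.75 to 0.12 for Igha, from -0.56 to 0.17 for Iglc1, from -0.59 to 0.08 for Iglc3, from -0.83 to -0.03 for Iglv1 and from -0.85 to -0.02 for Igkc, with the lowest value at 1 Trap1a UMI for all but Ighm. The 2.13 for Ighm rests on 18 Vehicle and 4 TAK-931 UMIs. The median log2 ratio of the members, 0.041 as reported, was 0.056 with at least 10 Trap1a UMIs, -0.59 with at least 1, 0.032 without the mitochondrial limit, -0.010 without tumour cells with 3 markers of another lineage (2635 and 13 cells left, where Ighm gave no value and 6 members remain), 0.052 per non-immunoglobulin UMI, -0.047 as a mean over cells and -0.028 with free RNA subtracted, where Ighm likewise gave no value. Alternatives chosen after seeing the data gave 0.084 in plasmacytoma clusters, 0.062 without cells with 60% of another lineage's markers, 0.013 at 50000 to 100000 UMIs and 0.033 without cells low in Iglc1. The share of tumour cells low in Igha became 1.94% (Vehicle) and 29.0% (TAK-931) with at least 1 Trap1a UMI. That set takes in cells otherwise counted as not tumour. The share became 0% in both without cells with 3 markers, 0% in TAK-931 with at least 10 Trap1a UMIs and 1.56% in TAK-931 without the mitochondrial limit. The Igha level in macrophage-like cells relative to tumour cells became 1.83% and 0.466% per non-immunoglobulin UMI and 3.27% and 0.679% with types from each cell's own markers. In TAK-931 it was also 0.558% with at least 10 Trap1a UMIs, 0.778% with at least 1 and 0.446% without cells with 3 markers. The count of cells with 3 or more B cell markers, 4 and 22 as reported, became 24 and 113 with at least 2 markers, 15 and 42 with no gene limit, 0 and 14 with at least 5 markers (chosen after seeing the data), and 39 in TAK-931 with over 1000 genes. The causes were not tested. Shares in the 124 TAK-931 tumour cells carry wide counting intervals.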
